A study of Mus musculus with 18 samples.

Results

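The mitochondrial genome of the mouse carries its own small set of genes, and 37 of the 54532 genes counted here lie on it. They were taken by name, as every gene whose symbol starts with mt-, and they split by annotated type into 13 genes for messenger RNAs, 2 for ribosomal RNAs and 22 for transfer RNAs. They were measured by poly(A)-selected RNA sequencing of nasal mucosa in 18 mouse libraries, 6 in each of 3 groups. The CRS libraries come from a model of chronic rhinosinusitis, in which papain, a plant protease, was put into the nose at 20 µg in 20 µL on days 0 to 2 and on days 7 to 11. The C10 libraries are taken to come from papain-treated mice, since the protocol describes giving the compound to CRS mice. They also had C10, taken to be the inhibitor of the DNA repair and redox protein APE1 that the series title speaks of, at 10 mg/mL and 10 µL per side once a day for 10 days from the opening papain dose. What the control libraries (CON) received is not stated, nor are strain, age, sex, the hour of collection or whether every library has its own animal, and the p-values here reflect only how far these libraries scatter, which may be technical.

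Mitochondrial DNA is copied into long RNAs from both strands, and these are cut into single messages, ribosomal RNAs and transfer RNAs, often at the transfer RNAs that sit between the other genes. All 13 messages encode membrane subunits of the respiratory chain: mt-Nd1, mt-Nd2, mt-Nd3, mt-Nd4, mt-Nd4l, mt-Nd5 and mt-Nd6 belong to complex I (NADH dehydrogenase), mt-Cytb to complex III, mt-Co1, mt-Co2 and mt-Co3 to complex IV (cytochrome c oxidase), and mt-Atp6 and mt-Atp8 to the ATP synthase. Every other subunit, the polymerase and the RNA processing enzymes come from nuclear genes. The nuclear genome also holds old insertions of mitochondrial DNA, and a read from such a stretch fits both genomes. In bulk tissue, a lower or higher count cannot separate a different number of cells or mitochondria from a different RNA content in each.

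The copies matter for reading these counts, because 1 insertion is close to identical to the mitochondrial genome. Transcripts of GENCODE release M21 on build mm10 were compared with each mitochondrial gene, and 7 annotated pseudogenes on chromosome 1, between 24611535 and 24616197 on the minus strand, were found to run in the same order as bases 6390 to 11042 of the mitochondrial genome. The 60-base stretches below are shown because the identity of the copy decides whether a read can be assigned. They give a mitochondrial gene and then its copy, with bases that differ in capitals. For mt-Co2 (MT:7013-7072, plus strand) and its copy Gm28661 (chr1:24615506-24615565, minus strand) there were none, and none differed over all 681 aligned bases.
mt-Co2: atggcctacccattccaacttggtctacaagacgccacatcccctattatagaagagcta
Gm28661: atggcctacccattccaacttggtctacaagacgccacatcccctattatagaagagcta
For mt-Nd3 (MT:9459-9518, plus strand) and Gm28438 (chr1:24613060-24613119, minus strand) the difference T3C, counted from the start of the gene, was the only one in 345 bases.
mt-Nd3: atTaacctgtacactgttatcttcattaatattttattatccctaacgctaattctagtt
Gm28438: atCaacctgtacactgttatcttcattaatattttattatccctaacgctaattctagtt
For mt-Co1 the copy Gm29216 (chr1:24616129-24616188, minus strand) matches the last 483 of 1545 bases, and A1066T was the only difference. The stretch shown is MT:6390-6449, on the plus strand.
mt-Co1: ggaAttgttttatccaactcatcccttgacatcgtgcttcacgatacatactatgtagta
Gm29216: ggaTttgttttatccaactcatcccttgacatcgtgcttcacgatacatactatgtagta
A more diverged insertion on chromosome 4 gives a contrast. There mt-Cytb (MT:14146-14205, plus strand) and Gm11410 (chr4:80003990-80004049, plus strand) were 92.9% identical, with 81 differences, of which G14A, C24T and C61T fall in the stretch shown.
mt-Cytb: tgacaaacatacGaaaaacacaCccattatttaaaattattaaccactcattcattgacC
Gm11410: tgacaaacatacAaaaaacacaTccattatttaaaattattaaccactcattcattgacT

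Mitochondrial messages fell into 2 classes of level, and the split followed the chromosome 1 copy. FPKM, the authors' count scaled by gene length and library size, allows levels of different genes to be compared. By median FPKM over the 18 libraries, mt-Co1 stood highest (7115), followed by mt-Cytb (4372) and mt-Nd1 (3137), and each of these lay above the next in 18 of 18 libraries. Then came mt-Nd5 (2051), mt-Nd4 (1929), mt-Nd2 (1787) and mt-Nd6 (1780), the only message on the minus strand. The last pair could not be ordered, since mt-Nd2 lay above mt-Nd6 in 10 of 18 libraries. The other 6 messages had a median FPKM of 144 for mt-Co2, 123 for mt-Atp6, 54.2 for mt-Co3, 44.4 for mt-Nd4l, 38.5 for mt-Nd3 and 6.92 for mt-Atp8. These 6 are the messenger genes that lie wholly between bases 6390 and 11042, the stretch found on chromosome 1. Both ribosomal RNAs, which form the core of the mitochondrial ribosome, lay between the classes at a median FPKM of 279 for mt-Rnr2 and 172 for mt-Rnr1.

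**Figure D1:**
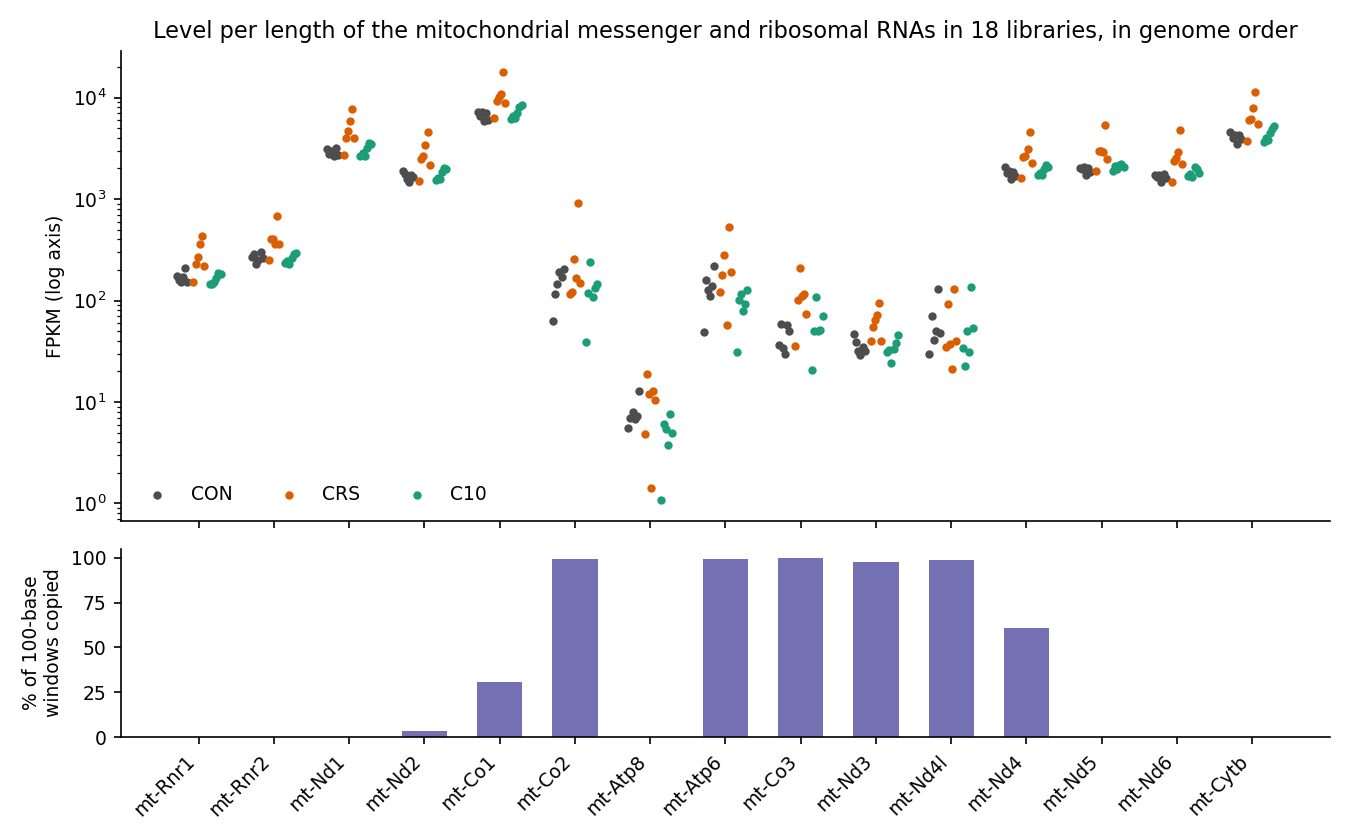
Upper panel: FPKM on a log axis of the 15 mitochondrial messenger and ribosomal RNA genes, 1 point per library, coloured by group, with genes in genome order. Lower panel: percent of all 100-base windows of the gene that are found letter for letter in an annotated nuclear transcript. The genes at lower FPKM from mt-Co2 to mt-Nd4l have 97.6% or more of their windows copied, except mt-Atp8 with 0%.

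Windows of 100 bases show how much of each gene is shared letter for letter with an annotated nuclear transcript. The share was 99.5% for mt-Co2, 99.5% for mt-Atp6, 99.9% for mt-Co3, 98.5% for mt-Nd4l and 97.6% for mt-Nd3. It was 60.8% for mt-Nd4 and 30.8% for mt-Co1, both in the higher class, 3.20% for mt-Nd2, and 0% for mt-Nd1, mt-Nd5, mt-Nd6, mt-Cytb, mt-Rnr1 and mt-Rnr2. For mt-Atp8 it was also 0%: no pseudogene is annotated in the gap from 24614652 to 24614884 on chromosome 1, where its copy would lie by position, and the sequence of that gap was not used here. The copies had counts of their own, which varied by library: Gm28437, the copy of mt-Co3, had 224 counts in CON 1 and 3840 in CRS 5. Of the summed counts of mt-Co3 and its copy, 23.4% to 72.3% were assigned to the copy, and for mt-Co2 and Gm28661 16.8% to 58.2%. For mt-Nd4 and Gm28439 the copy's share was 0.370% to 0.824%. How the authors treated reads that fit more than 1 place is not given in the sources used here, and its part in the low level of the 6 genes was not tested.

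Among themselves the 7 abundant messages kept nearly fixed proportions. As a percent of all mitochondrial messenger counts in a library, mt-Co1 made up 36.2 to 40.6%, mt-Cytb 16.9 to 19.4%, mt-Nd5 11.4 to 14.5%, mt-Nd1 9.90 to 12.2% and mt-Nd4 8.80 to 9.89%. mt-Nd2 made up 5.82 to 7.74% and mt-Nd6 2.89 to 3.72%. The coefficient of variation of these shares over 18 libraries was 2.56 to 6.17%. For the 6 low messages it was 14.5% (mt-Nd3) to 60.2% (mt-Nd4l), so they varied more than the abundant ones from library to library. The share of mt-Co1 had a median of 38.5% in CON, 38.2% in CRS and 38.6% in C10, and that of mt-Cytb 17.5%, 17.8% and 17.4%. mt-Nd6 is read from the opposite strand to mt-Nd5 and overlaps it by 14 bases, and it had 22.4 to 28.7 counts per 100 of mt-Nd5. The kit is not stated to keep the strand. RNA from the opposite strand may therefore be counted on mt-Nd6, in that overlap or in the rest of the gene. The library CRS 4 stood at an edge of several of these measures: it had the highest shares of mt-Cytb (19.4%), mt-Nd1 (12.2%) and mt-Nd2 (7.74%) and the lowest ratio of mt-Rnr2 to mt-Rnr1 counts (1.63, against 2.38 to 3.01 in CON).

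A pair of genes overlaps on the same strand as well, and there a read belongs to both. The last bases of mt-Nd4l (MT:10144-10173) and the first of mt-Nd4 (MT:10167-10196) share 7 bases, in capitals, which hold the end of one reading frame and the start of the other. mt-Atp8 and mt-Atp6 share 43 bases in the same way.
mt-Nd4l end: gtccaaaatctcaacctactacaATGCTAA
mt-Nd4 start: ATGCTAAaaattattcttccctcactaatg

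The papain model was set against control first. Mitochondrial genes took a larger part of all gene counts in 5 of the 6 CRS libraries than in any CON library. The 6 CON libraries held 3.04, 2.73, 3.03, 2.50, 2.82 and 2.58% of their counts on these 37 genes, in order of replicate number. The CRS libraries held 2.63, 3.89, 3.69, 4.66, 7.12 and 3.69%. CRS 1 lay inside the CON range, and CRS 5 lay far above the rest. The C10 libraries held 2.72, 2.84, 2.66, 2.96, 3.35 and 3.18%, with 4 of the 6 inside the CON range and C10 5 and C10 6 above it. Medians were 2.77% in CON, 3.79% in CRS and 2.90% in C10. Library totals were alike, at 15883573 to 18433866 counts over all 18 libraries.

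**Figure D2:**
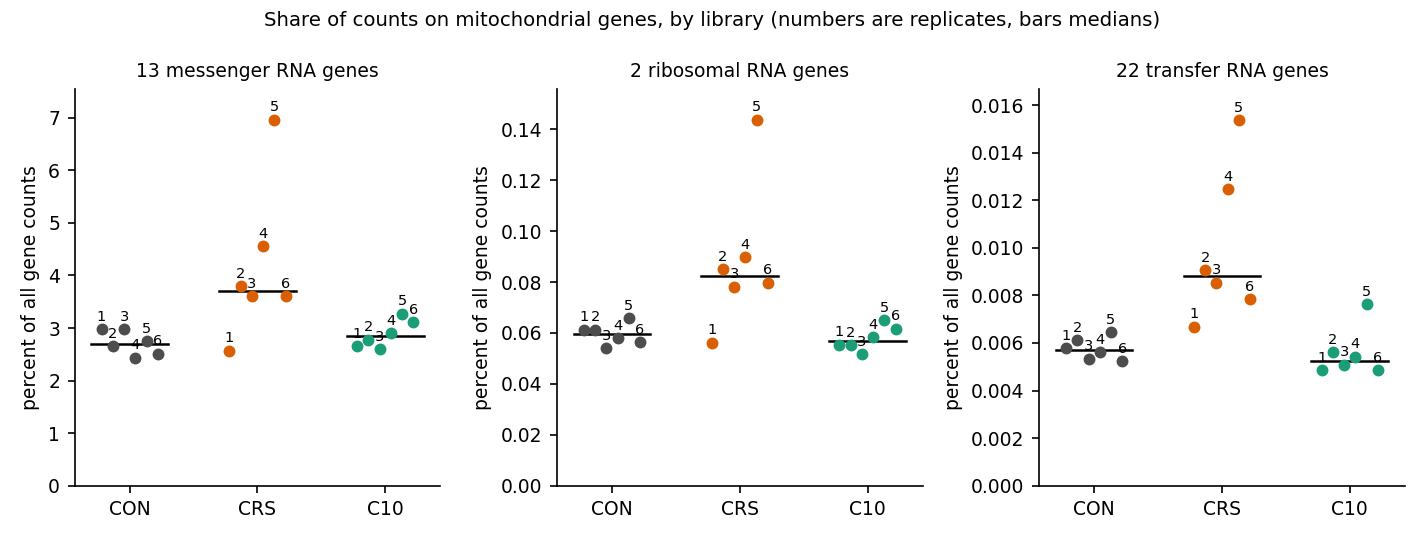
Percent of all gene counts in a library that fall on the 13 messenger, 2 ribosomal and 22 transfer RNA genes of the mitochondrial genome, each panel on its own axis from 0. Points are libraries, numbered by replicate, and bars are medians of 6; CRS 5 is the highest and CRS 1 the lowest CRS library in all 3 panels.

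All 3 classes of RNA had their highest median in CRS. Messages made up most of the counts, with medians of 2.70% in CON, 3.70% in CRS and 2.84% in C10. For the 2 ribosomal RNAs the medians were 0.0596%, 0.0823% and 0.0569%, and for the 22 transfer RNAs 0.00570%, 0.00880% and 0.00526%. There were 1.82 to 2.40 ribosomal counts per 100 messenger counts, so few of the counts from this poly(A)-selected material fell on the ribosomal RNAs.

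In the test gene by gene, no mitochondrial gene passed in CRS against CON. edgeR's quasi-likelihood test called 0 of the 13 messages at an adjusted p under 0.05, where it called 0.00547% of all 18291 genes tested higher (a single gene). Values nevertheless leaned one way: 12 of 13 messages had a log2 fold change above 0, with a median of 0.72 beside 0.00 for all genes tested. At an unadjusted p under 0.05, 9 of 13 were higher, beside 7.75% of all genes. On simulated counts for this comparison the same test found 20 of 100 genes changed 1.5-fold and 71 of 100 changed 2-fold, with 5 false calls. Those genes were drawn from all genes tested, with a spread shared by all groups. The messages spread more widely in CRS (mt-Nd1 SD 216.3 CPM in CON and 1703 in CRS), so these rates are no measure for them.

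Complex I messages showed the lean with values that overlapped between groups. mt-Nd1, in the membrane arm near the quinone site, had 3018, 2698, 2899, 2531, 3035 and 2604 CPM (counts scaled to a common library size) in CON and 2621, 3922, 4459, 5655, 7494 and 3799 in CRS. All CRS libraries but CRS 1 lay above every CON library. The fold change was 1.67 (log2 0.74 ± 0.19 SE, n = 6 each; edgeR adjusted p = 0.206). The proton-pumping subunits mt-Nd2, mt-Nd4 and mt-Nd5 had log2 fold changes of 0.74 ± 0.19, 0.63 ± 0.18 and 0.68 ± 0.18, and mt-Nd6, also of the membrane arm, 0.71 ± 0.19. In each of these 4 genes, too, CRS 1 was the lowest CRS library, CRS 5 the highest, and 5 of 6 lay above all CON values. mt-Nd3 had 10.1 to 16.4 CPM in CON and 13.8 to 33.3 in CRS, with 4 of 6 CRS libraries above all CON values (log2 0.77 ± 0.20). mt-Nd4l was the exception of the complex, at 8.81 to 38.7 CPM in CON and 6.32 to 39.0 in CRS (log2 -0.06 ± 0.48; edgeR adjusted p = 0.969). Both of these genes lie in the copied stretch.

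In complexes III and IV the abundant messages behaved like those of complex I. mt-Cytb, the core electron carrier of complex III, had 5266, 4631, 4981, 4050, 4891 and 4471 CPM in CON and 4220, 6973, 7034, 8981, 13104 and 6262 in CRS. Again only CRS 1 fell inside the CON range (log2 0.72 ± 0.20; edgeR adjusted p = 0.210). mt-Co1, the catalytic subunit of complex IV and the most abundant message, averaged 10348 ± 940.1 CPM in CON and 16409 ± 6185 in CRS (SD, n = 6 each; log2 0.67 ± 0.20; edgeR adjusted p = 0.220). mt-Co3, a core subunit, had the largest fold change among the messages at 2.42. It had 28.6, 46.5, 27.2, 23.4, 44.9 and 39.7 CPM in CON and 28.2, 81.6, 161.8, 87.1, 92.5 and 57.6 in CRS, so 5 of 6 CRS libraries lay above all CON ones (log2 1.27 ± 0.36; edgeR adjusted p = 0.211). The counts of its copy Gm28437 gave 1.08 ± 0.56. mt-Co2, which takes electrons from cytochrome c, rested on 1 library: CRS 5 had 631.4 CPM, the other CRS libraries 79.8 to 175.1 and CON 43.5 to 141.8 (log2 0.95 ± 0.49, and 0.13 without CRS 5).

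The ATP synthase messages were low and wide in spread. mt-Atp6, which forms part of the proton channel, had 33.4 to 150.8 CPM in CON and 38.9 to 365.4 in CRS (log2 0.75 ± 0.43; edgeR adjusted p = 0.451). mt-Atp8 had 20 to 48 counts per library in CON and 5 to 63 in CRS (log2 0.35 ± 0.44; edgeR adjusted p = 0.748). Neither group lay apart from the other. When the counts of each message and of its near-identical copy were added, which was tried after the data were seen, mt-Nd4l turned to 0.38 ± 0.43, all 13 messages were above 0, and the median stayed at 0.72.

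Both ribosomal RNAs leaned the same way as the messages. mt-Rnr1, of the small subunit, had 145.6 to 199.9 CPM in CON and 146.8, 221.0, 254.8, 346.1, 422.9 and 209.5 in CRS (log2 0.71 ± 0.19; edgeR adjusted p = 0.206). mt-Rnr2, of the large subunit, had 368.6 to 475.7 CPM in CON and 394.3 to 1097 in CRS (log2 0.61 ± 0.17; edgeR adjusted p = 0.206). In both, 5 of 6 CRS libraries lay above all CON libraries.

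The calls depended on the tool and on CRS 1, and the size of the difference on CRS 5. Without CRS 1, edgeR called 9 messages, both ribosomal RNAs and 6 transfer RNAs higher, beside 2.16% of all genes, and the median of the messages was 0.84. Without CRS 5 it called none, and the median was 0.46. With all libraries, DESeq2 called 9 messages, both ribosomal RNAs and 5 transfer RNAs (0.634% of all genes higher), and limma-voom with library weights called 7, 2 and 6 (2.16%). The messages called by none of these were mt-Co2, mt-Atp6, mt-Atp8 and mt-Nd4l. The other 2 messages of the copied stretch, mt-Co3 and mt-Nd3, were called by DESeq2 (adjusted p = 0.038 and 0.0341) and by edgeR without CRS 1 (adjusted p = 0.0233 and 0.0241).

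**Figure D3:**
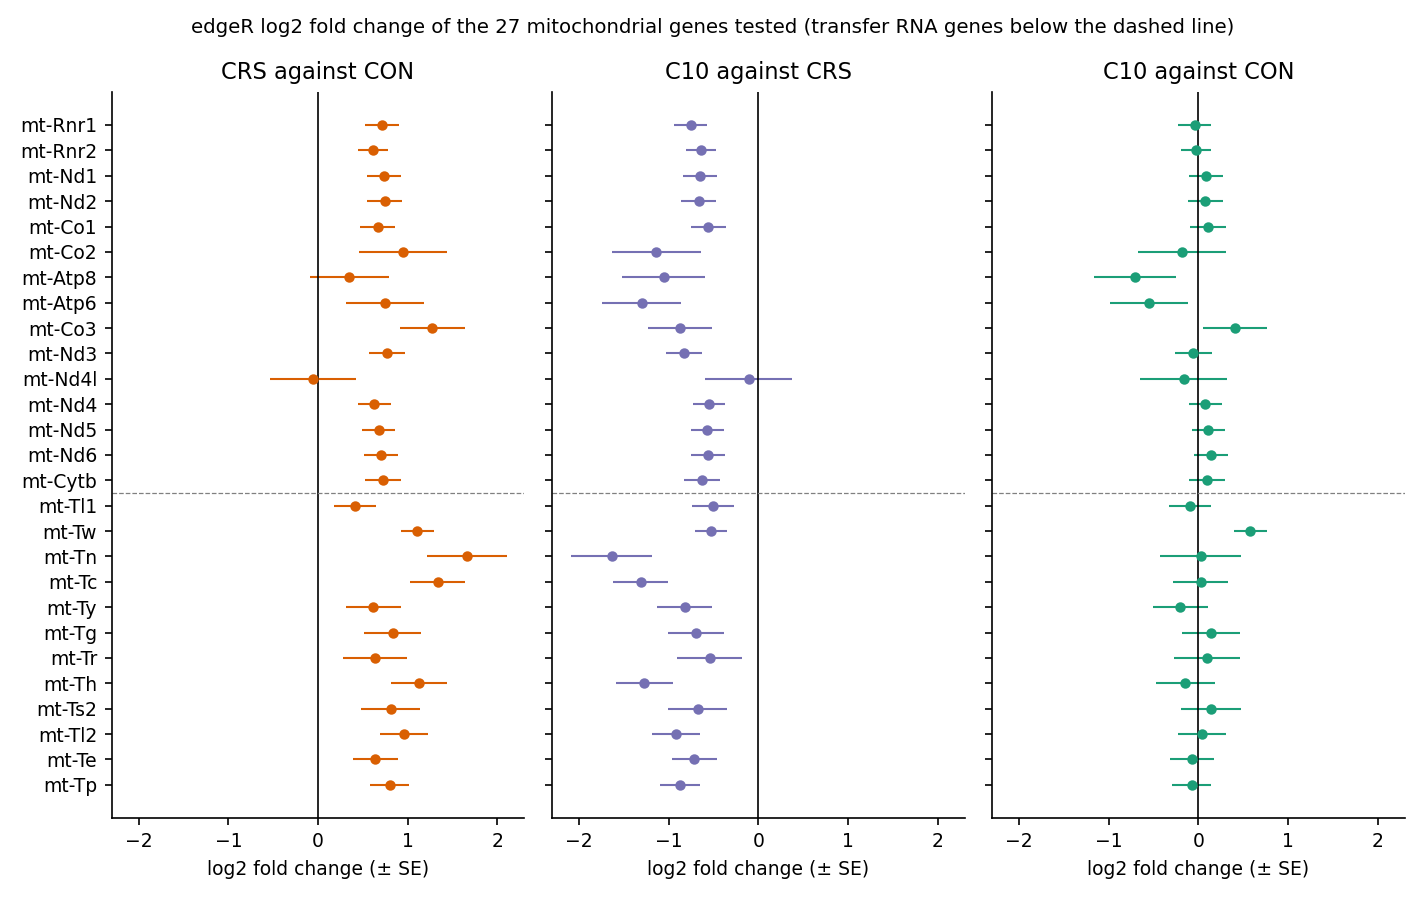
edgeR log2 fold change with its SE (bars) for the 27 mitochondrial genes that passed the filter on low counts, in genome order, with messenger and ribosomal RNAs above the dashed line and transfer RNAs below it. Values sit above 0 in CRS against CON except mt-Nd4l, below 0 in C10 against CRS, and between -0.71 and 0.58 in C10 against CON; none passed an adjusted p of 0.05.

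Transfer RNAs carry amino acids to the mitochondrial ribosome and are only 59 to 75 bases long here. The 5 below are those the results turn on: mt-Tp (proline), mt-Te (glutamate) and mt-Tc (cysteine) had the most counts, and mt-Tn (asparagine) and mt-Tw (tryptophan) were picked after their values were seen. The anticodon is in capitals. Positions are MT:15356-15422, MT:14071-14139, MT:5192-5257 and MT:5089-5159 on the minus strand for the first 4, and MT:4950-5016 on the plus strand for mt-Tw.
mt-Tp: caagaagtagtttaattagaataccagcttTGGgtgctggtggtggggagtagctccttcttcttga
mt-Te: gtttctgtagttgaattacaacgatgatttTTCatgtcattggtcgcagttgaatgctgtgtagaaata
mt-Tc: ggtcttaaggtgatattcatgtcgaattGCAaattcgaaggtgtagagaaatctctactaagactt
mt-Tn: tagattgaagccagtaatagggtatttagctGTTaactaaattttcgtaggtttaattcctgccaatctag
mt-Tw: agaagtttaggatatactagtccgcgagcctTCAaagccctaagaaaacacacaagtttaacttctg

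Counts on the 22 transfer RNA genes were few and uneven. The 8 genes on the minus strand held 17627 counts over all libraries, or 80.2%, and the 14 on the plus strand 4350. Strand here is that of the annotated gene. The kit is not stated to keep the strand, so RNA from the opposite strand may be counted on these genes. mt-Tp alone had 10549, followed by mt-Te with 3391, mt-Tc with 2058 and mt-Tl2 with 1345. At the other end mt-Tf had 0 counts in every library, and mt-Td had 1, mt-Ts1 3, mt-Tv 4 and mt-Tk 5. Of the 22 genes, 5 lie within bases 6390 to 11042, the stretch found on chromosome 1. They are mt-Ts1, mt-Td, mt-Tk, mt-Tg and mt-Tr, while mt-Tf and mt-Tv lie outside it. The part of read assignment in these low counts was not tested. In a single library a count of 0 allows up to 3 counts, or 0.163 to 0.193 CPM, counting error only. 12 of the 22 passed the filter on low counts, so the remarks below leave the other 10 out. A read from an uncut precursor is counted here as well as one from a finished transfer RNA.

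**Figure D4:**
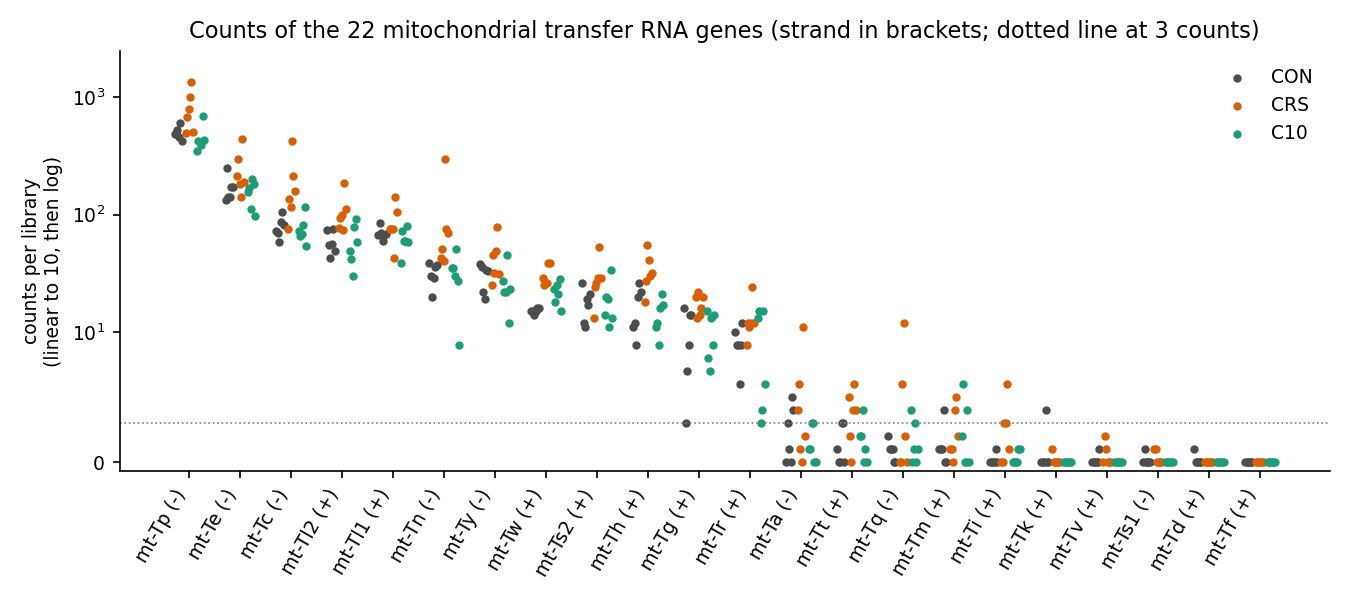
Counts per library of the 22 mitochondrial transfer RNA genes, sorted by total, on an axis that is linear to 10 and log above it; the sign gives the strand and the dotted line marks 3 counts. Points are libraries coloured by group; mt-Tp is the highest, mt-Tf is at 0 throughout, and CRS 4 is the single high point of mt-Tn (296) and of mt-Tc (423).

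All 12 transfer RNAs that passed had a log2 fold change above 0 in CRS against CON, with a median of 0.82, and edgeR called 0 of them (9 at an unadjusted p under 0.05, 7.75% of all genes). mt-Tw came nearest. It had 15, 15, 14, 15, 16 and 16 counts in CON and 29, 25, 26, 26, 39 and 39 in CRS, so the groups did not overlap. The CON counts lay closer together than counting error alone usually gives, so their narrow range is not a measure of the spread. For how many of all genes the groups do not overlap was not counted, here or for genes below. The fold change of mt-Tw was 2.15 (log2 1.10 ± 0.18; edgeR adjusted p = 0.0624), and 6 of 31 alternative fits called it: DESeq2, limma-voom, limma on FPKM with either pseudocount, edgeR with a filter of 1 CPM in 6 libraries, and edgeR without CRS 1 (adjusted p = 0.0119). Of all genes, 0.0164% and 0.0109% were called higher on FPKM plus 1 and plus 0.1, and 0.0176% with the filter. mt-Tl2, a transfer RNA for leucine, had 2.34 to 4.23 CPM in CON and 4.29 to 11.3 in CRS, also without overlap (log2 0.96 ± 0.27; edgeR adjusted p = 0.209). mt-Tp had 23.4 to 33.7 CPM in CON and 28.7 to 82.2 in CRS (log2 0.80 ± 0.22; edgeR adjusted p = 0.206). mt-Te had 7.56 to 14.3 and 8.12 to 26.5 CPM (log2 0.64 ± 0.25; edgeR adjusted p = 0.275), with 2 of 6 CRS libraries above all CON values.

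A pair of neighbours on the minus strand had 1 library far from the others. mt-Tn had 43, 51, 40, 296, 75 and 70 counts in CRS 1 to CRS 6, and 20 to 39 in CON. mt-Tc had 76, 137, 117, 423, 213 and 159 in CRS and 58 to 106 in CON. Of the genes on either side, mt-Ta had 0 counts in CRS 4. mt-Ty had 49 there, above the 19 to 38 of CON but within the 25 to 79 of the other CRS libraries, of which only CRS 5 was higher. Between mt-Tn and mt-Tc lie bases 5160 to 5191, the start site of light-strand DNA replication. Over all CRS libraries the log2 fold change was 1.66 ± 0.45 for mt-Tn and 1.33 ± 0.31 for mt-Tc (edgeR adjusted p = 0.206 for both). Without CRS 4 they were 0.91 and 0.94, neither called.

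The comparison of C10 with CRS asks whether the compound altered what the model shows. It shares the CRS libraries with the comparison above, so CRS 1 and CRS 5 weigh on both, and the opposite signs are not independent of each other. All 13 messages were below 0, with a median log2 fold change of -0.65 beside 0.01 for all genes tested. edgeR called 0 of them, where it called 0.0656% of all genes lower, and 12 had an unadjusted p under 0.05, beside 7.41% of all genes.

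By complex, the values were again alike for the abundant messages. mt-Nd1 had 2550, 2807, 2547, 3065, 3468 and 3386 CPM in C10, with 5 of 6 CRS libraries above all of these (log2 -0.65 ± 0.19; edgeR adjusted p = 0.158). mt-Cytb had 4215 to 6073 CPM in C10 (log2 -0.62 ± 0.20) and mt-Co1 9667 to 13325 (log2 -0.56 ± 0.20). Among complex I messages mt-Nd3 had the smallest adjusted p. Its C10 libraries had 8.53 to 16.1 CPM (log2 -0.82 ± 0.20; edgeR adjusted p = 0.106). mt-Nd2, mt-Nd4, mt-Nd5 and mt-Nd6 had log2 fold changes of -0.66, -0.55, -0.57 and -0.56. mt-Co2 (-1.13 ± 0.49), mt-Co3 (-0.87 ± 0.36), mt-Atp6 (-1.30 ± 0.44) and mt-Atp8 (-1.06 ± 0.46) had larger values with larger errors. mt-Nd4l stood at -0.11 ± 0.48. Its sign turned in 4 of the fits that left out 1 library, among them those without CRS 5 (0.28) and without CRS 2 (0.06). Without CRS 5 the median of the messages was -0.43 and mt-Co2 stood at -0.32.

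Ribosomal and transfer RNAs lay below 0 too. mt-Rnr1 had 140.4 to 180.8 CPM in C10 (log2 -0.75 ± 0.19; edgeR adjusted p = 0.107) and mt-Rnr2 366.1 to 469.3 (log2 -0.64 ± 0.17; edgeR adjusted p = 0.127). All 12 transfer RNAs tested were below 0, with 0 called (0.0656% of all genes lower) and 10 at an unadjusted p under 0.05 (7.41%). mt-Tc had the smallest adjusted p among them, with 3.45 to 6.73 CPM in C10 (log2 -1.31 ± 0.31; edgeR adjusted p = 0.103). mt-Tn (-1.64 ± 0.45), mt-Tp (-0.87 ± 0.22), mt-Tl2 (-0.92 ± 0.27), mt-Te (-0.71 ± 0.25) and mt-Tw (-0.52 ± 0.18) did not pass either, and mt-Tn stood at -0.89 without CRS 4. DESeq2 called 4 messages (mt-Nd1, mt-Nd2, mt-Nd3 and mt-Nd5), both ribosomal RNAs and 5 transfer RNAs, beside 1.23% of all genes lower. limma-voom called mt-Nd1, both ribosomal RNAs and 4 transfer RNAs, beside 1.75%. Without CRS 1 edgeR called both ribosomal RNAs and mt-Tc (0.13% of all genes lower). With the mean level of 9 olfactory neuron genes as a covariate it called 3 messages, both ribosomal RNAs and 4 transfer RNAs, beside 1.51% of all genes lower.

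In C10 against CON, which shares libraries with both comparisons above, the messages lay close to 0. The median log2 fold change was 0.08, beside 0.01 for all genes tested, with 8 of 13 above 0. edgeR called 0 messages, beside 0.0437% of all genes higher and 0.115% lower, and 0 had an unadjusted p under 0.05, beside 6.29% of all genes higher and 6.83% lower. DESeq2 (0.67% of all genes higher, 1.07% lower) and limma-voom (0.53% higher, 0.847% lower) also called 0. The 7 abundant messages had values from 0.08 (mt-Nd2) to 0.14 (mt-Nd6), with SE between 0.18 and 0.20. mt-Nd5 had 3477, 3934, 3624, 4042, 4086 and 3814 CPM in C10 against 3142 to 3778 in CON, so 4 of 6 C10 libraries lay above all CON ones (log2 0.11 ± 0.18; edgeR adjusted p = 0.831). In the copied stretch the range was wider, from mt-Atp8 at -0.71 ± 0.46 to mt-Co3 at 0.41 ± 0.36. mt-Rnr1 stood at -0.04 ± 0.18 and mt-Rnr2 at -0.03 ± 0.17. Among the transfer RNAs mt-Tw alone had an unadjusted p under 0.05: all 6 C10 libraries, at 0.957 to 1.61 CPM, lay above the CON range of 0.760 to 0.890 (log2 0.58 ± 0.19; edgeR adjusted p = 0.203). The closeness of its CON counts, given above, bears on this comparison too. mt-Tp, mt-Te, mt-Tc, mt-Tl2 and mt-Tn lay between -0.07 and 0.04.

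Nuclear genes of the same complexes leaned with the mitochondrial ones, by smaller amounts. In CRS against CON all 37 nuclear complex I genes tested were above 0 (median log2 fold change 0.39), as were 9 of 9 of complex III (0.50), 13 of 13 of complex IV (0.52), 18 of 18 of the ATP synthase (0.39) and 4 of 4 of complex II (0.16), which has no mitochondrial gene. edgeR called 0 of them in any direction. At an unadjusted p under 0.05, 33 of 37 were higher for complex I, 2 of 4 for complex II, 6 of 9 for complex III, 12 of 13 for complex IV and 15 of 18 for the ATP synthase, beside 7.75% of all genes. In C10 against CRS all of these genes were below 0, with medians of -0.33, -0.44, -0.45, -0.38 and -0.20. Ndufa3, a small complex I subunit, had 24.8 ± 5.50 CPM in CON and 48.1 ± 25.5 in CRS (SD, n = 6 each; log2 0.95 ± 0.24; edgeR adjusted p = 0.206). Uqcrh of complex III had 92.8 ± 14.1 CPM and 148.8 ± 49.97 CPM (log2 0.68 ± 0.16; edgeR adjusted p = 0.206). Cox7c of complex IV stood at 0.94 ± 0.27 and Atp5l of the ATP synthase at 0.72 ± 0.19 on the log2 scale. In these lists, C10 against CON had medians of 0.03 to 0.08 outside complex II (-0.05).

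The genes that make mitochondrial RNA and protein lay nearer to 0. Of 17 genes for mitochondrial DNA transcription and replication, 11 were above 0 in CRS against CON (median log2 fold change 0.11), of 31 for RNA processing and stability 18 (0.05), and of 28 for translation 14 (0.01), with 0 called in each. Polrmt, the mitochondrial RNA polymerase, had 20.9 to 24.7 CPM in CON and 16.5 to 23.5 in CRS (log2 -0.16 ± 0.09; edgeR adjusted p = 0.445). Tfam, which packs mitochondrial DNA and starts its transcription, stood at 0.15 ± 0.09. Lrpprc, which stabilises mitochondrial messages, stood at -0.02 ± 0.08, and its partner Slirp, at only 0.460 to 2.23 CPM in CON, at 0.24 ± 0.41. None of these 4 was called in C10 against CRS, at 0.15 for Polrmt, -0.08 for Tfam, -0.03 for Lrpprc and -0.81 for Slirp.

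Ppargc1a, a coactivator that turns on nuclear genes for mitochondria, was the 1 gene of the whole table called in CRS against CON. It had 27.5 to 42.8 CPM in CON and 49.6 to 78.7 in CRS, so it rose 1.78-fold (log2 0.83 ± 0.12; edgeR adjusted p = 0.018). The groups did not overlap, and CRS 1, whose mitochondrial share lay within the CON range, had 61.6 CPM. In C10 it had 38.5 to 46.1 CPM, lower than CRS by 0.62 on the log2 scale (SE 0.12; edgeR adjusted p = 0.0458) without overlap. Both calls depended on the fit. DESeq2 kept both, with an adjusted p of 4.15e-07 in CRS against CON and 0.000395 in C10 against CRS, and so did limma-voom (0.00448 and 0.00827). With only the 2 groups compared the edgeR adjusted p was 0.198 in CRS against CON and 0.0567 in C10 against CRS, and with the replicate number as a block it was 0.0691 and 0.0772. For limma on FPKM plus 0.1 it was 0.0626 in C10 against CRS. Leaving out CON 1, CON 4, CON 5, CRS 4 or CRS 6 took the edgeR adjusted p in CRS against CON to 0.056 to 0.0921. In C10 against CRS leaving out any C10 library, CRS 3, CRS 4, CRS 5, CRS 6, CON 1 or CON 4 took it to 0.0571 to 0.125. The other 12 biogenesis regulators were not called. Of 14 genes taken to follow mitochondrial mass, all were above 0 in CRS against CON (median 0.14), and of 12 tested for mitochondrial stress all were (median 0.25), none called. Hspa9, a chaperone of protein import, had 208.6 ± 9.57 CPM in CON and 240.3 ± 10.3 in CRS (log2 0.20 ± 0.05; edgeR adjusted p = 0.206).

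**Figure D5:**
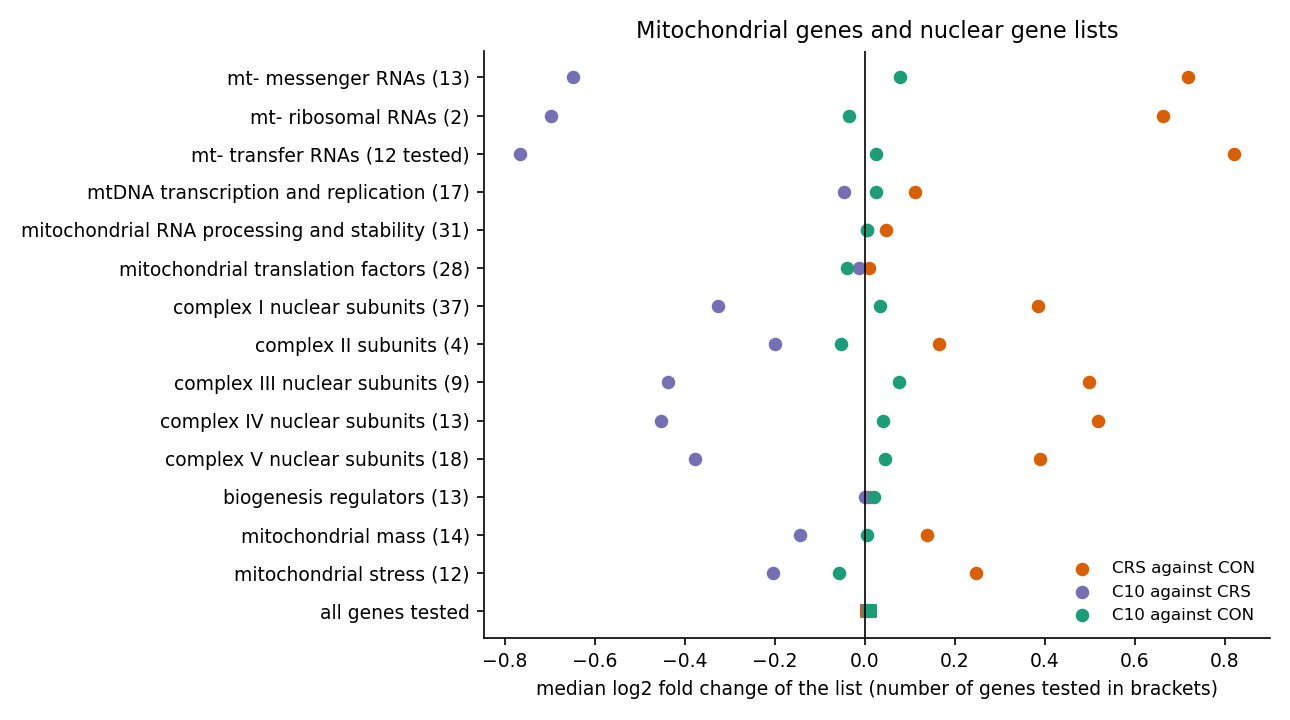
Median edgeR log2 fold change of each class of mitochondrial gene and of 11 lists of nuclear genes, with the number of genes tested in brackets; colours are the 3 comparisons and squares are the medians of all genes tested. The mitochondrial classes lie at 0.66 to 0.82 in CRS against CON and the nuclear complex I, III, IV and V lists at 0.39 to 0.52.

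Other measures moved with the mitochondrial share between groups or among the CRS libraries, and their part in it was not tested. Malat1, Neat1 and Meg3, long RNAs kept in the nucleus, summed to 992.2 CPM in CRS 4 and 924.7 in CRS 5, the libraries with the highest shares, and to 338.8 to 613.0 in the other 16. All 3 were above 0 in CRS against CON (median log2 fold change 0.45) and 0 of 3 in C10 against CRS (-0.64), where the messages had -0.65. RNAs without a poly(A) tail were near the floor, at 0.217 to 1.51 CPM summed over 9 genes, of which 5 had 0 counts, and CRS 4 and CRS 5 were the highest. Genes of mature olfactory neurons, 9 of 9 tested, summed to 9120 CPM in CRS 2 and 8653 in CRS 5, but to 5175 in CRS 4, against 3058 to 7473 in CON. All 9 were above 0 in CRS against CON (median log2 fold change 0.21) and 6 of 9 in C10 against CRS (0.06). With their mean level as a covariate the median of the messages in CRS against CON was 0.59. Of 6 genes tested for supporting (sustentacular) cells, 6 were above 0 in CRS against CON (0.25) and 3 in C10 against CRS (0.00). The 9 pseudogenes listed as nuclear copies were all above 0 in CRS against CON (median log2 fold change 1.13) and 0 of 9 in C10 against CRS (-0.93). They summed to a median of 163.6 CPM in CON, 413.8 in CRS and 218.7 in C10, with CRS 5 highest at 759.0. Of these 9, 7 are the near-identical copies on chromosome 1, on which reads from mitochondrial genes may be counted. Their values are therefore not independent of those of the mitochondrial genes. Endothelial genes were lowest in CRS 5 (132.1 CPM) and highest in CRS 1 (676.2 CPM). Skeletal muscle genes, of a tissue rich in mitochondria, summed to 2.84 to 6.16 CPM, except in CON 5 with 57.6; CRS 4 had 5.45 and CRS 5 had 4.29. Markers of the labelled tissue were present in every library, at 14658 to 116363 CPM for nasal glands and 489.6 to 1096 CPM for ciliated cells, and they too differed between groups. Gland genes leaned as the mitochondrial ones did, with 7 of 7 above 0 in CRS against CON (median log2 fold change 0.55) and 1 of 7 in C10 against CRS (-0.29). Ciliated cell genes leaned the other way, with 2 of 9 above 0 (-0.37) and then 8 of 9 (0.36). In CRS against CON none of the fibroblast (-0.54, 7 genes), endothelial (-0.54, 6 genes), macrophage (-0.41, 7 genes), neutrophil (-0.58, 6 genes) and red blood cell genes (-1.19, 6 genes) was above 0. In C10 against CRS these 5 lists had medians of -0.25, 0.03, -0.55, 0.33 and 0.28.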

How the data were processed

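Per the labels' protocols, libraries were made from poly(A)-selected RNA of mouse nasal mucosa. The deposited counts are raw whole-number read counts per gene made by the authors, and the deposited FPKM values are the authors' own; the library sizes they imply were 0.877 to 1.08 times the count totals. The build is mm10, per the submitters' processing notes; the aligner, counting tool and annotation release used by the authors: not given in the sources used here. In R 4.3.3, edgeR 4.0.16 kept 18291 of 54532 genes (filterByExpr), applied TMM factors and ran two-sided quasi-likelihood F-tests on all 18 libraries, 1 mean per group, with Benjamini-Hochberg adjustment over all genes tested and a threshold of 0.05. CPM uses TMM-scaled totals, and the SE is the log2 fold change over the square root of F. The biological coefficient of variation was 0.264. Nuclear copies were found with blastn 2.17.0 (90% identity, 100 bases) against GENCODE M21 transcripts, the source of all sequences shown; all 37 positions equal those of GENCODE. Alternatives were other filters and size factors, fewer groups, a replicate block, an olfactory covariate, DESeq2 1.42.0, limma 3.58.1 (voom; log2 FPKM plus 1 or 0.1), added copy counts and leaving out each library. The test was checked on simulated data. No 2 libraries were repeats of each other (lowest chi-square per degree of freedom 13.5 over 153 pairs). All messenger and ribosomal genes were named, with the 4 transfer RNA genes of highest count; in nuclear lists, called genes, or else the 2 of smallest p, could be named, and 5 regulators always. Members and lists were chosen with earlier results of these data known.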

Additional observations from a re-analysis of the deposited data

Results flagged for a closer look

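Among 66 sets of 6 values (21 mitochondrial genes and the summed mitochondrial share, in each of 3 groups), 10 had a library whose gap to its nearest neighbour was larger, relative to the range of the group, than Dixon's limit for 6 values. Chance gives about 1 in 20 independent sets, but these sets share libraries, and mt-Tn and mt-Tw, which gave 2 of the 10, were picked after their values were seen, so that rate is no measure for the 10. CRS 5 was the library apart in 4 of them: mt-Nd5 at 9912 CPM (next 5511), mt-Co2 at 631.4 CPM (next 175.1), mt-Rnr2 at 1097 CPM (next 647.6) and mt-Tl2 at 11.3 CPM (next 6.49). CRS 4 was apart in mt-Tn at 17.2 CPM (next 4.53). In C10 the library C10 5 was apart in mt-Nd4l at 41.0 CPM (next 16.3) and in mt-Tc at 6.73 CPM (next 4.57). In CON the values apart were mt-Atp8 in CON 6 at 2.62 CPM (next 1.63), mt-Te in CON 2 at 14.3 CPM (next 9.57) and mt-Tw in CON 3, which was low at 0.760 CPM (next 0.852). For mt-Tw this was 14 counts in CON 3 against 15 or 16 in the other CON libraries, which is within counting error.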

How the results depend on the processing

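Counts of genes called at an adjusted p under 0.05 depended on the tool, and comparisons of C10 and of CRS share libraries. In CRS against CON edgeR called 1 of all genes, and alternatives called 3 (1 CPM in 6 libraries), 0 (only these 2 groups), 0 (replicate block), 2 (olfactory covariate), 154 (DESeq2), 940 (voom), 3 (FPKM plus 1) and 2 (FPKM plus 0.1); leaving out 1 library gave 0 to 994. Messages called went from 0 to 9 (DESeq2) and 7 (voom), ribosomal RNAs to 2 with each of these, and transfer RNAs to 1 (1 CPM in 6 libraries), 5 (DESeq2), 6 (voom), 1 (FPKM plus 1) and 1 (FPKM plus 0.1); leaving out 1 library gave 0 to 9, 0 to 2 and 0 to 6. In C10 against CRS 15 of all genes became 23 (1 CPM), 9 (only these 2 groups), 658 (covariate), 334 (DESeq2), 548 (voom), 26 (FPKM plus 1) and 100 (CRS 2 and CRS 5 left out together, chosen after the data were seen), and 7 to 81 without 1 library. There, messages called were 3 (covariate), 4 (DESeq2) and 1 (voom), ribosomal RNAs 2 with each of the 3 and 0 to 2 without 1 library, and transfer RNAs 4, 5 and 4, and 0 to 1. In C10 against CON 29 became 17 (no filter), 161 (only these 2 groups), 12 (block), 261 (covariate), 317 (DESeq2), 252 (voom) and 74 (CRS 2 and CRS 5 out), and 3 to 110 without 1 library. Directions turned for values near 0. In CRS against CON mt-Nd4l became 0.38 with copies added, mt-Atp8 -0.13 without CRS 2 and CRS 5, Lrpprc 0.0025 (covariate) and 0.0303 (CRS 2 and CRS 5 out), and Slirp -0.041 (voom). In C10 against CRS mt-Nd4l became 0.72 (CRS 2 and CRS 5 out). In C10 against CON the covariate gave mt-Cytb -0.024, mt-Nd1 -0.0082, mt-Nd4 -0.026, mt-Nd2 -0.033, mt-Tc -0.021 and mt-Tl2 -0.11; mt-Tl2 was -0.00015 with the block, -0.018 (voom), -0.015 (FPKM plus 1) and -0.016 (FPKM plus 0.1), and mt-Tn -0.064, -0.085 and -0.095 with the block and both FPKM fits. Leaving out 1 library turned these within a range: in CRS against CON Lrpprc (-0.068 to 0.039) and mt-Nd4l (-0.45 to 0.30), in C10 against CRS Lrpprc (-0.095 to 0.019) and mt-Nd4l (-0.63 to 0.28), and in C10 against CON Lrpprc (-0.070 to 0.0013), Polrmt (-0.047 to 0.042), mt-Co2 (-0.45 to 0.0050), mt-Nd3 (-0.16 to 0.038), mt-Nd4l (-0.69 to 0.19), mt-Rnr1 (-0.090 to 0.021), mt-Rnr2 (-0.074 to 0.0045), mt-Tc (-0.13 to 0.12), mt-Te (-0.16 to 0.080), mt-Tl2 (-0.13 to 0.17), mt-Tn (-0.16 to 0.20) and mt-Tp (-0.23 to 0.0012). Except for changes made by the construction of a setting, the cause was not tested. Replicate numbers are shared by the groups but are not stated to pair libraries. Of 18 pairs with the same number, 8 correlated over 0.1, and in 3 the library correlated best with its own number. With 1 library per number and group, such correlations cannot tell whether litters or batches were shared. With the block the median of the messages was 0.65, -0.60 and 0.06 in the 3 comparisons, with 0 called. Depth limits mt-Atp8 and most transfer RNAs, the first at 4 to 63 counts per library.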
